A study of Homo sapiens with 16 samples.

Results

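The genes described here are 5 kinases that act below ERK and 5 genes whose transcripts are used as a readout of ERK feedback. The kinases are RPS6KA1, RPS6KA2 and RPS6KA3, which encode RSK1, RSK3 and RSK2 in that order, and RPS6KA4 and RPS6KA5, which encode MSK2 and MSK1. The feedback genes are DUSP4, DUSP6, SPRED2, ETV4 and ETV5. They were chosen by gene name, and 10 of the 60357 genes listed for each in vitro library were matched. All 10 had at least 600 reads in total and passed the filter on low counts, RPS6KA2 and DUSP4 only through the libraries where they are high.

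The RNA-seq libraries come from Kasumi-1 and SKNO-1, human AML cell lines with the t(8;21) translocation that creates the RUNX1/ETO fusion gene. Cells received lipid nanoparticles (LNPs) at 2 µg/ml for 24 h, were washed, and were harvested on day 3. LNP/siRE-mod carries a chemically modified siRNA against RUNX1/ETO, and LNP/siMM-mod carries a mismatched control siRNA. Each line has 3 libraries of either treatment, 12 in total, which the comparison of the siRNAs is built on. In the labels the genotype of the siMM-mod libraries is WT and that of the siRE-mod libraries is RUNX1/ETO knockdown. All 12 libraries come from LNP-treated cells, so no untreated cells are among them, and each line is a single established line. The medium of SKNO-1 contained GM-CSF and that of Kasumi-1 did not. Nothing states that replicates were separate cultures, so p-values cover only the spread between these libraries, which may be technical.

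RAS proteins activate RAF, MEK and ERK kinases in sequence, and ERK then phosphorylates the RSK and MSK kinases. RSKs act on translation, survival and growth proteins in the cytoplasm and nucleus, whereas MSKs are nuclear and phosphorylate histone H3 and CREB. ERK signalling also induces its own inhibitors. DUSP4 and DUSP6 are phosphatases that remove activating phosphates from ERK, and SPRED2 holds back activation of RAF by RAS. ETV4 and ETV5 are not inhibitors but ETS transcription factors that carry the response to target genes, and they are counted with the feedback genes here. In t(8;21) AML, activating lesions of KIT and RAS are frequent partners of the fusion.

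The target of the siRNA was read first, through RUNX1T1 (also called ETO), the 3′ partner of the fusion, and through CD34, a surface protein of haematopoietic stem and progenitor cells. Values are normalised CPM, deposited read counts scaled to CPM with TMM factors over the 12 libraries. RUNX1T1 was 297, 92.9 and 161 in the libraries labelled Kasumi-1 siMM-mod 1, 2 and 3, and 44.4, 159 and 37.3 in those labelled Kasumi-1 siRE-mod 1, 2 and 3. It was 329, 298 and 127 in those labelled SKNO-1 siMM-mod and 124, 165 and 40.4 in those labelled SKNO-1 siRE-mod. The labelled groups therefore overlapped in both lines, and the libraries labelled Kasumi-1 siRE-mod 2 and SKNO-1 siRE-mod 2 were higher than at least 1 control of their line.

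CD34 split the same libraries along another axis that the labels do not follow. It lay between 117 and 421 in 6 libraries, Kasumi-1 siMM-mod 1 and 2, SKNO-1 siMM-mod 1, 2 and 3 and SKNO-1 siRE-mod 1. In the other 6 it was at most 0.627, and IL5RA, which encodes a cytokine receptor chain, was between 36.3 and 68.0 there against at most 0.179 in the first 6. Both sides thus contain libraries labelled Kasumi-1 and libraries labelled SKNO-1. The largest gap in RUNX1T1 within each side then left 3 libraries above it and 3 below. On the CD34-expressing side the higher libraries were SKNO-1 siMM-mod 1 and 2 and Kasumi-1 siMM-mod 1 (RUNX1T1 297 to 329), and the lower ones were Kasumi-1 siMM-mod 2, SKNO-1 siMM-mod 3 and SKNO-1 siRE-mod 1 (92.9 to 127). On the CD34-silent side the higher libraries were Kasumi-1 siMM-mod 3, Kasumi-1 siRE-mod 2 and SKNO-1 siRE-mod 2 (159 to 165), and the lower ones were Kasumi-1 siRE-mod 1 and 3 and SKNO-1 siRE-mod 3 (37.3 to 44.4). These 4 sets are used below to list values in order and to count genes whose values do not overlap between sets. They were read from expression, and no mean or test was taken over them. Cell line, culture and treatment cannot be told apart from the 2 markers. RUNX1, the 5′ partner of the fusion, ran from 383 to 411, from 296 to 317, from 249 to 274 and from 141 to 156 in the 4 sets. Because reads are assigned to whole genes, RUNX1T1 and RUNX1 values do not separate the fusion transcript from the unrearranged genes.

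The libraries held 60559466 to 147990959 counts on genes, and no pair had identical counts. All 7 myeloid blast markers passed the filter, with a summed level of 12448 to 26867 on the CD34-expressing side and 2509 to 7046 on the CD34-silent side. Most of this sum was MPO, at 10437.5 to 22666.9 and 1782.68 to 5750.06. KIT, MPO, ELANE and AZU1 were lower in every CD34-silent library than in every CD34-expressing one. The ranges of CD33 and SPI1 overlapped. PTPRC went the other way, at 67.8 to 80.2 on the CD34-expressing and 185 to 441 on the CD34-silent side. The sums of 4 T cell, 4 erythroid and 4 stromal markers were at most 0.402, 1.01 and 1.24, with 1 T cell marker and 1 stromal marker at 0 in every library. Those of 4 B cell markers ran from 4.07 to 10.8 on the CD34-expressing side and from 13.0 to 31.0 on the CD34-silent side, and 1 of the 4 was at 0 in every library. CD79B made up most of the B cell sums, at 2.61 to 8.28 and 11.6 to 28.5. The part of these differences in the results below was not tested.

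**Figure D1:**
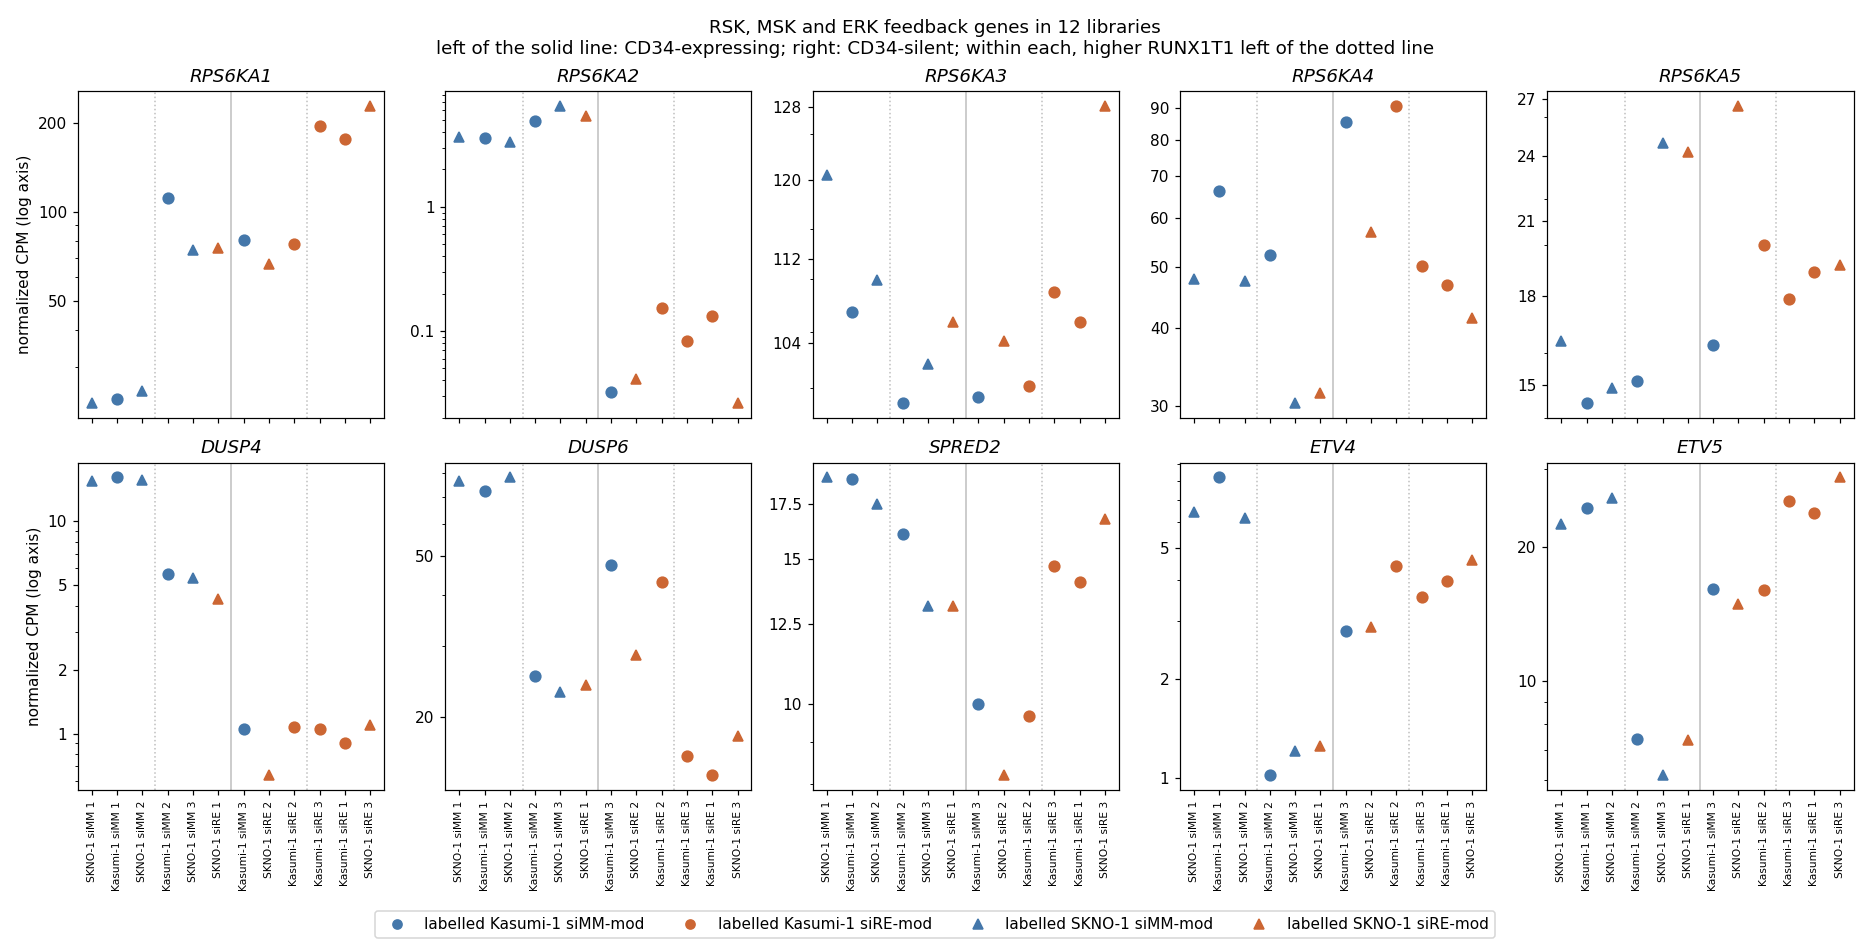
Normalised CPM (log axis, with its own range in each panel) of the 10 genes in each of the 12 libraries, ordered by CD34 and then RUNX1T1; symbols give the labelled line and colours the labelled siRNA. RPS6KA1 runs from 22.5 at the left to 228 at the right, RPS6KA2 is near 0 in every CD34-silent library, and ETV5 is lowest in the 3 CD34-expressing libraries with lower RUNX1T1 (6.16 to 7.44).

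Promoter sequences were inspected for the binding motif of RUNX1, since RUNX1/ETO binds DNA through the RUNX1 moiety. RefSeq (GRCh38.p14) promoters were matched for 7 of the 10 genes, with 13 promoters in all, and the 250 bases before each start were searched on both strands. The core motif TGTGGT was present in 3 of 13 promoters, 1 each of RPS6KA1, RPS6KA2 and SPRED2, against 11.0% of 35116 promoters of the same length. The variant TGCGGT and the ETS core CCGGAA, the motif of ETV4 and ETV5, were in 0 of the 13 and in 5.84% and 14.5% of all promoters. The 3 motifs were counted separately, and no match lay over another. DUSP4, ETV4 and ETV5 were not matched. A match describes the letters and is not evidence of a bound site.

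Shown are the promoter of RPS6KA1, the kinase that varied most among the well expressed ones, the internal promoter of SPRED2, and the promoter of DUSP6, the feedback gene with the highest median per length. Capitals mark the RUNX core motif. The RPS6KA1 window (chr1:26529511-26529760, plus strand) ends at the base before the gene's first exon and touches no exon, and its motif lies at −234 to −229 from the start. The SPRED2 window (chr2:65366779-65367028, minus strand) lies in an intron of the gene, upstream of an internal start, with the motif at −238 to −233 from that start. The DUSP6 window (chr12:89352502-89352751, minus strand) has no such motif, and all 250 of its bases lie in an exon of AC024909.1, a gene on the opposite strand.
RPS6KA1 promoter 1: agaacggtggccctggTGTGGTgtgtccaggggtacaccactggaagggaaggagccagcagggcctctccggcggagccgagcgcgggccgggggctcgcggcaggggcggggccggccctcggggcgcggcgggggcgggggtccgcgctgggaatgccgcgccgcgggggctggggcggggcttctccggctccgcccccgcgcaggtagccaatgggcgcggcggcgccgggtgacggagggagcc
SPRED2 promoter 2: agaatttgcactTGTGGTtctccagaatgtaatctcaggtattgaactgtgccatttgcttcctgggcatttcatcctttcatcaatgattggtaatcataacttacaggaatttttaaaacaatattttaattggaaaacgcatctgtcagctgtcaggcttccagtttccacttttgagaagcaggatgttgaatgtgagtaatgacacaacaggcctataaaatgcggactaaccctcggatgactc
DUSP6 promoter 1: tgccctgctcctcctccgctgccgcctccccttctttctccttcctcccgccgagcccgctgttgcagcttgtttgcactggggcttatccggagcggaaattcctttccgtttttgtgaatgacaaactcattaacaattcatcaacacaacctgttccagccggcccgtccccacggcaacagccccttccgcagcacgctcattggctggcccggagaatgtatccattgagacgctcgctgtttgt

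RPS6KA1 (ENSG00000117676.14, chr1:26529761-26575030, plus strand, GRCh38) encodes RSK1 and had the widest range of the well expressed kinases. It was 23.2, 111 and 80.5 in the libraries labelled Kasumi-1 siMM-mod 1, 2 and 3 and 177, 78.0 and 195 in Kasumi-1 siRE-mod 1, 2 and 3. It was 22.5, 24.9 and 74.5 in SKNO-1 siMM-mod 1, 2 and 3 and 75.3, 66.5 and 228 in SKNO-1 siRE-mod 1, 2 and 3. In both lines the labelled groups overlapped, because the library labelled siRE-mod 2 was at or below the highest control. The log2 fold change between labels was 1.07 (SE 0.62, n = 3 and 3) in Kasumi-1 with an adjusted p of 0.386, and 1.58 (SE 0.67) in SKNO-1 with an adjusted p of 0.470 (edgeR quasi-likelihood test). Read by the markers instead, the libraries fell into 3 levels. RPS6KA1 was 22.5 to 24.9 in the 3 CD34-expressing libraries with higher RUNX1T1 and 74.5 to 111 in the 3 with lower RUNX1T1. On the CD34-silent side it was 66.5 to 80.5 in the libraries with higher RUNX1T1 and 177 to 228 in those with lower RUNX1T1. On either side, every library with lower RUNX1T1 therefore had more RPS6KA1 than every library with higher RUNX1T1. The middle sets overlapped, so RSK1 transcript in CD34-silent libraries with higher RUNX1T1 was not separated from that in CD34-expressing libraries with lower RUNX1T1.

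**Figure D2:**
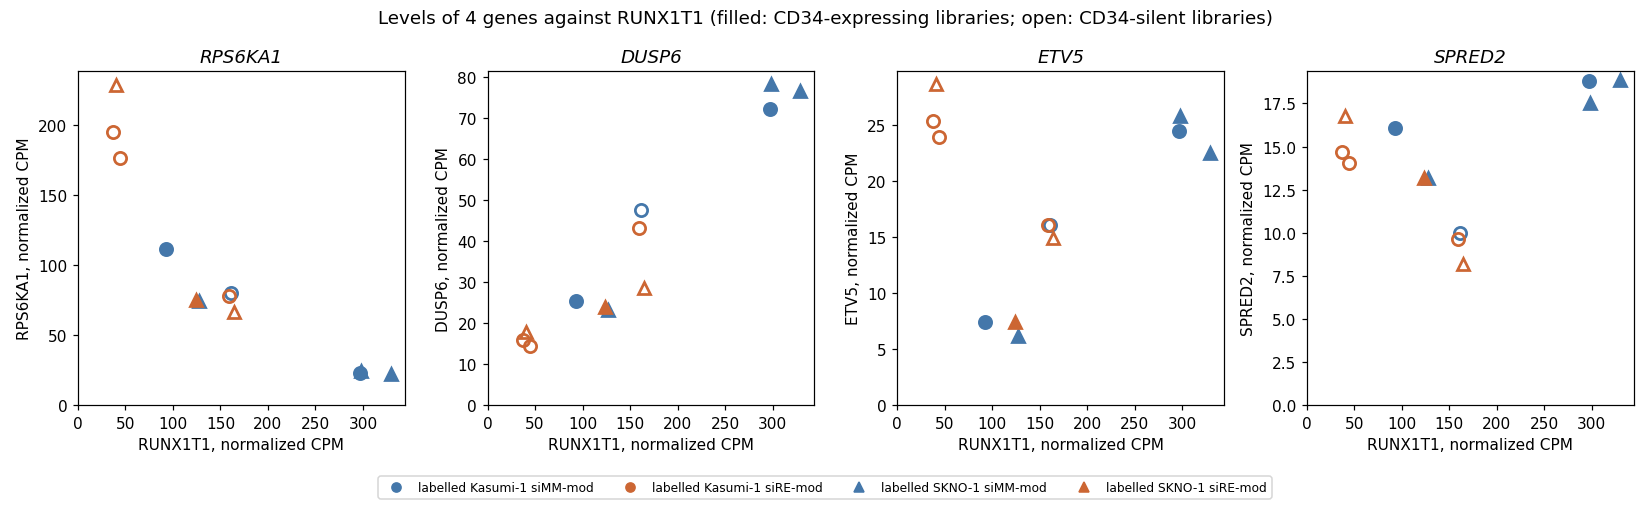
Normalised CPM of RPS6KA1, DUSP6, ETV5 and SPRED2 (vertical) against that of RUNX1T1 (horizontal) in each of the 12 libraries, with filled symbols for CD34-expressing and open symbols for CD34-silent libraries. RPS6KA1 is highest (177 to 228) where RUNX1T1 is lowest (37.3 to 44.4), whereas ETV5 is low at lower RUNX1T1 among filled symbols (6.16 to 7.44) and high there among open ones (23.9 to 28.7).

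RPS6KA2 (ENSG00000071242.12, chr6:166409364-166906451, minus strand) encodes RSK3 and followed CD34. It was 3.57, 4.95 and 0.0325 in Kasumi-1 siMM-mod 1, 2 and 3, and 0.132, 0.154 and 0.0836 in Kasumi-1 siRE-mod 1, 2 and 3. It was 3.69, 3.32 and 6.51 in SKNO-1 siMM-mod 1, 2 and 3, and 5.44, 0.0412 and 0.0261 in SKNO-1 siRE-mod 1, 2 and 3. In counts these are 230 to 415 reads in each of the 6 CD34-expressing libraries and 3 to 20 reads in each of the 6 CD34-silent ones, with no library between. The low values rest on so few reads that their order says nothing, and intervals for them would cover counting error only. Among the CD34-expressing libraries, RPS6KA2 was 4.95 to 6.51 with lower and 3.32 to 3.69 with higher RUNX1T1, the same order as RPS6KA1. Between labels, RPS6KA2 had log2 fold changes of −4.52 (SE 1.52) for Kasumi-1 and −1.28 (SE 1.76) for SKNO-1, with adjusted p of 0.253 and 0.817, and the labelled groups overlapped in both lines. In Kasumi-1 it passed the filter of 600 reads with 698, of which 654 lie in siMM-mod and 44 in siRE-mod, so the filter fixes the direction and the value supports nothing.

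RPS6KA3 (ENSG00000177189.14, chrX:20149911-20267519, minus strand) encodes RSK2 and varied least of the 10 genes. The lowest of the 12 libraries was at 98.6, the median at 105.9 and the highest at 128. In Kasumi-1 it was 107, 98.6 and 99.1 in siMM-mod 1, 2 and 3 and 106, 100.2 and 109 in siRE-mod 1, 2 and 3. In SKNO-1 the values were 121, 109.9 and 102 for siMM-mod and 106, 104 and 128 for siRE-mod. The log2 fold changes of 0.051 (SE 0.11, adjusted p = 0.807) and 0.021 (SE 0.16, adjusted p = 0.980) were smaller than their errors by edgeR. By the markers it was 99.1 to 104 in the CD34-silent libraries with higher RUNX1T1 and 106 to 128 in those with lower RUNX1T1, a small separation. The separation on the CD34-expressing side (107 to 121 with higher and 98.6 to 106 with lower RUNX1T1) was lost in the deposited CPM, which lack TMM factors.

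RPS6KA4 (ENSG00000162302.13, chr11:64359148-64372215, plus strand), the gene of MSK2, was highest in libraries that do not share an siRNA label. It was 66.4, 52.2 and 85.7 in Kasumi-1 siMM-mod 1, 2 and 3 and 46.8, 90.8 and 50.2 in Kasumi-1 siRE-mod 1, 2 and 3. In SKNO-1 the levels were 47.8, 47.5 and 30.2 for siMM-mod and 31.4, 56.9 and 41.5 for siRE-mod. The labelled groups overlapped, with log2 fold changes of −0.11 (SE 0.31, adjusted p = 0.849) and 0.048 (SE 0.29, adjusted p = 0.973) by edgeR, and both changed sign when single libraries were left out. On the CD34-silent side RPS6KA4 was 56.9 to 90.8 with higher and 41.5 to 50.2 with lower RUNX1T1, so it ran against RPS6KA1 there. On the CD34-expressing side the ranges of 47.5 to 66.4 and 30.2 to 52.2 overlapped.

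RPS6KA5 (ENSG00000100784.12, chr14:90847861-91060641, minus strand), the gene of MSK1, was the only kinase whose labelled groups were apart in normalised CPM, and only in Kasumi-1, where RPS6KA3 was apart as well in the deposited CPM. There it was 14.4, 15.1 and 16.3 in siMM-mod 1, 2 and 3 and 18.9, 20.0 and 17.9 in siRE-mod 1, 2 and 3. The log2 fold change was 0.32 (SE 0.14) with an adjusted p of 0.301 by edgeR, so this small difference did not pass the test. In SKNO-1 it was 16.4, 14.9 and 24.7 in siMM-mod and 24.2, 26.6 and 19.2 in siRE-mod, which overlap, with a log2 fold change of 0.32 (SE 0.28, adjusted p = 0.686). Read by the markers, the ranges of RPS6KA5 overlapped on both sides. DGLUCY shares 309 of its exonic bases (1.10%) on the opposite strand, and the counting may or may not have used strand.

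Levels of different kinases were compared per kilobase of exon. RPS6KA1, RPS6KA4 and RPS6KA3 were the 3 abundant transcripts, with medians over the 12 libraries of 13.0, 12.9 and 10.8 normalised CPM per kb, while RPS6KA5 and RPS6KA2 were at 0.658 and 0.212. RPS6KA1 ranged from 3.82 to 38.8, RPS6KA4 from 7.94 to 23.9 and RPS6KA3 from 10.1 to 13.1 on this scale, so these neighbours in the order did not differ beyond their spread. RPS6KA5 (0.516 to 0.951) and RPS6KA2 (0.00318 to 0.792) were below all of them in every library and overlapped each other per kb. The exonic length used was 27982 bases for RPS6KA5, 8211 for RPS6KA2 and 3807 to 9801 for the other kinases. Before division by length RPS6KA5 was 14.4 to 26.6 normalised CPM and RPS6KA2 at most 6.51, without overlap. The order of RPS6KA5 and RPS6KA2 thus depends on the length used. RPS6KA1 was the most abundant kinase in 6 libraries, and RPS6KA4 in the other 6. In the 3 CD34-expressing libraries with higher RUNX1T1 the order was RPS6KA4, RPS6KA3, RPS6KA1, and RPS6KA1 led in all 6 libraries with lower RUNX1T1. Per kb, RPS6KA2 was the least abundant in 11 libraries, and RPS6KA5 in Kasumi-1 siMM-mod 2. In that library RPS6KA5 was 15.1 normalised CPM and RPS6KA2 4.95.

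**Figure D3:**
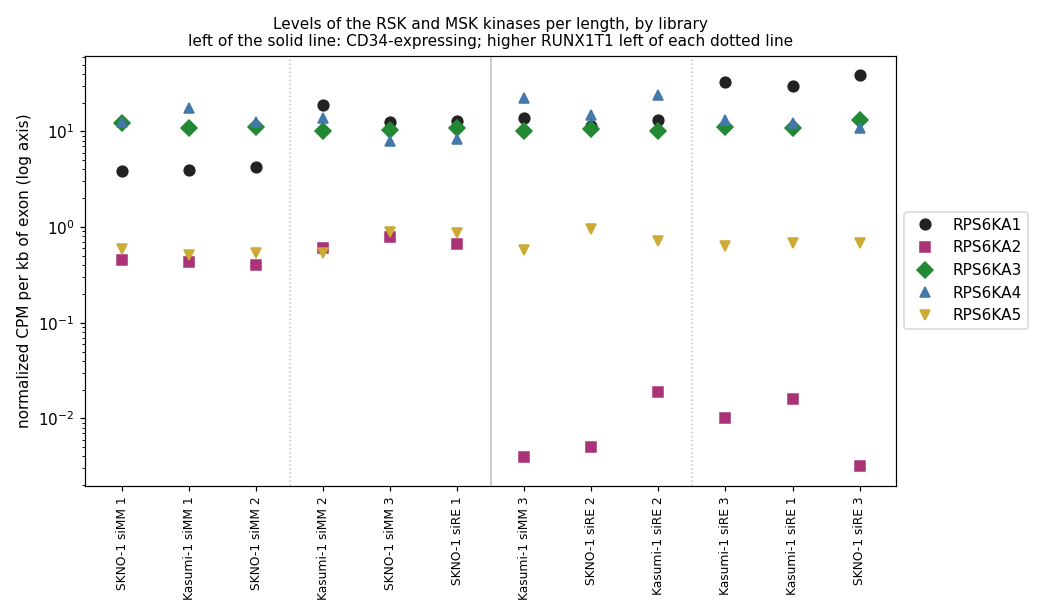
Normalised CPM per kilobase of exon (log axis) of the 5 kinases in each of the 12 libraries, ordered by CD34 and then RUNX1T1 with lines between the 4 sets. RPS6KA3 stays between 10.1 and 13.1, RPS6KA1 moves from 3.82 at the left to 38.8 at the right, and RPS6KA2 lies between 0.00318 and 0.0187 in the CD34-silent libraries.

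DUSP4 (ENSG00000120875.9, chr8:29333064-29350684, minus strand), a nuclear ERK phosphatase, was high in few libraries. It was 16.0, 5.61 and 1.05 in Kasumi-1 siMM-mod 1, 2 and 3 and 0.901, 1.08 and 1.06 in siRE-mod 1, 2 and 3. In SKNO-1 the values were 15.5, 15.6 and 5.39 for siMM-mod and 4.31, 0.638 and 1.10 for siRE-mod. The SKNO-1 groups were apart and the Kasumi-1 groups overlapped, since the library labelled siMM-mod 3 was at the level of the siRE-mod ones. Between labels, the log2 fold change was −2.91 (SE 0.94, adjusted p = 0.252) for Kasumi-1 and −2.58 (SE 0.83, adjusted p = 0.466) for SKNO-1 by edgeR. By the markers DUSP4 had 3 levels: 15.5 to 16.0 in CD34-expressing libraries with higher RUNX1T1, 4.31 to 5.61 in those with lower RUNX1T1, and 0.638 to 1.10 in all 6 CD34-silent libraries. Within the CD34-silent libraries the ranges by RUNX1T1 overlapped.

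DUSP6 (ENSG00000139318.8, chr12:89347235-89352501, minus strand), the cytoplasmic ERK phosphatase, had the highest median of the feedback transcripts per length, at 6.99 normalised CPM per kb against 3.34 for ETV5, the next. ETV5 was above it in the 3 CD34-silent libraries with lower RUNX1T1 (4.14 to 4.96 against 3.73 to 4.65 per kb). Kasumi-1 siMM-mod 1, 2 and 3 held 72.2, 25.4 and 47.6 normalised CPM and siRE-mod 1, 2 and 3 held 14.4, 43.1 and 16.0. SKNO-1 siMM-mod 1, 2 and 3 held 76.5, 78.2 and 23.1, and siRE-mod 1, 2 and 3 held 24.0, 28.6 and 17.9. The groups overlapped in both lines, and the log2 fold changes of −0.98 (SE 0.57, adjusted p = 0.386) and −1.33 (SE 0.47, adjusted p = 0.466) did not pass edgeR's test. DUSP6 followed RUNX1T1 on both sides of CD34. It was 72.2 to 78.2 with higher and 23.1 to 25.4 with lower RUNX1T1 in CD34-expressing libraries, and 28.6 to 47.6 and 14.4 to 17.9 in CD34-silent ones. Of the exonic bases of DUSP6, 1105 (28.6%) are shared with AC024909.1 on the opposite strand, and reads of the pair cannot be told apart without a strand setting.

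SPRED2 (ENSG00000198369.10, chr2:65310851-65432637, minus strand), the inhibitor of RAF activation, varied over a narrow range from 8.20 to 18.9. It was 18.8, 16.1 and 10.0 in Kasumi-1 siMM-mod 1, 2 and 3 and 14.1, 9.66 and 14.7 in siRE-mod 1, 2 and 3. In SKNO-1 it was 18.9, 17.5 and 13.2 in siMM-mod and 13.2, 8.20 and 16.8 in siRE-mod. The labelled groups overlapped, with log2 fold changes of −0.22 (SE 0.30, adjusted p = 0.689) and −0.38 (SE 0.32, adjusted p = 0.671) by edgeR. The direction by RUNX1T1 differed with CD34. Among CD34-expressing libraries SPRED2 was 17.5 to 18.9 with higher and 13.2 to 16.1 with lower RUNX1T1, and among CD34-silent libraries it was 8.20 to 10.0 with higher and 14.1 to 16.8 with lower RUNX1T1. The difference between these directions was not tested.

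ETV4 (ENSG00000175832.13, chr17:43527844-43579620, minus strand) and ETV5 (ENSG00000244405.8, chr3:186046314-186110318, minus strand) are related ETS factors, and both were lowest in the CD34-expressing libraries with lower RUNX1T1. ETV4 was 8.20, 1.02 and 2.80 in Kasumi-1 siMM-mod 1, 2 and 3 and 3.96, 4.41 and 3.55 in siRE-mod 1, 2 and 3. It was 6.46, 6.17 and 1.21 in SKNO-1 siMM-mod and 1.25, 2.87 and 4.59 in siRE-mod. The groups overlapped, and the log2 fold changes of −0.014 (SE 0.72, adjusted p = 0.992) and −0.67 (SE 0.74, adjusted p = 0.762) were below their errors by edgeR. By the markers ETV4 was 6.17 to 8.20, then 1.02 to 1.25 in CD34-expressing libraries with higher and lower RUNX1T1, and 2.80 to 4.41 and 3.55 to 4.59, which overlap, in CD34-silent ones. ETV5 shared the first step and not the second. It was 24.5, 7.44 and 16.1 in Kasumi-1 siMM-mod 1, 2 and 3 and 23.9, 16.1 and 25.4 in siRE-mod 1, 2 and 3. In SKNO-1 it was 22.5, 25.8 and 6.16 in siMM-mod and 7.39, 14.9 and 28.7 in siRE-mod. The groups overlapped, with log2 fold changes of 0.45 (SE 0.44, adjusted p = 0.587) and −0.10 (SE 0.64, adjusted p = 0.975). By the markers ETV5 was 22.5 to 25.8 with higher and 6.16 to 7.44 with lower RUNX1T1 on the CD34-expressing side, and stood at 14.9 to 16.1 with higher against 23.9 to 28.7 with lower RUNX1T1 on the CD34-silent side. On that side the ranges by RUNX1T1 thus overlapped for ETV4 and not for ETV5. DHX8 and DGKG share 1.94% and 2.84% of the exonic bases of ETV4 and ETV5.

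Across the markers, the feedback genes were lower together in the CD34-expressing libraries with lower RUNX1T1 and were not lower together in the CD34-silent ones. On the CD34-expressing side, 8 of the 10 genes did not overlap between higher and lower RUNX1T1, against 38.2% of all 15863 genes kept, and all 5 feedback genes were lower, against 20.1% of all genes. RPS6KA1 and RPS6KA2 were higher there, against 18.1% of all genes, and RPS6KA3 was lower. On the CD34-silent side 6 of 10 did not overlap, against 43.3% of all genes. RPS6KA1, RPS6KA3, SPRED2 and ETV5 were higher, against 21.7%, and RPS6KA4 and DUSP6 were lower, against 21.6%. Only RPS6KA1 (higher) and DUSP6 (lower) stood apart in the same direction on both sides. Between the CD34-expressing and CD34-silent libraries with higher RUNX1T1, 8 of 10 did not overlap, against 60.6% of all genes. RPS6KA1 was higher in the CD34-silent libraries, against 31.8%, and RPS6KA2, RPS6KA3 and all 5 feedback genes were lower, against 28.8%. These sets differ in RUNX1T1 too (297 to 329 with CD34, 159 to 165 without), so CD34 and RUNX1T1 cannot be told apart in this comparison. RPS6KA2 had 3 to 20 reads in each of these CD34-silent libraries and passed the filter only through CD34-expressing ones. The filter thus fixed its direction here, and its place among the 8 of 10 supports nothing. With the deposited CPM in place of TMM the counts were 7, 6 and 7, since RPS6KA3 overlapped on the CD34-expressing side and between the sides. These are counts of separated values without a test. The 10 genes were chosen with earlier results of these data known, so the shares of all genes are given as description only.

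By label, 0 of the 10 genes passed an adjusted p of 0.05 in either line by edgeR's quasi-likelihood test, and neither did any other gene (0.0% of 13608 in Kasumi-1 and of 13628 in SKNO-1). In Kasumi-1, 4 of the genes had a positive and 6 a negative log2 fold change, with a median of −0.064 against 0.020 for all genes tested. The counts in SKNO-1 were also 4 and 6, with a median of −0.24 against 0.027. RPS6KA2 and DUSP4 had an unadjusted p under 0.05 in Kasumi-1 (2 of 10, against 17.9% of all genes), as did DUSP4 and DUSP6 in SKNO-1 (2 of 10, against 10.7%). RPS6KA2 and DUSP4 have under 600 reads in siRE-mod in either line (44 and 350 in Kasumi-1, 373 and 520 in SKNO-1) and passed the filter through siMM-mod, where they are high, so these counts are given as description only. Labelled groups that did not overlap were 1 of 10 in Kasumi-1, RPS6KA5, against 21.6% of all genes, and 1 of 10 in SKNO-1, DUSP4, against 12.1%. With 10 genes these counts are too near the shares of all genes to be read as a result about the members. In a fit over all 12 libraries the siRNA difference was not called different between the lines for any of the 10 (0.0% of 15863 genes, and 0 of 10 at an unadjusted p under 0.05 against 0.668%). DESeq2 called RPS6KA2 and DUSP4 in Kasumi-1, with DUSP4 at −2.93 (adjusted p = 0.0162), where it called 8.51% of all genes. In SKNO-1 it called DUSP4 (−2.58, adjusted p = 0.0386), where it called 2.73% and gave no adjusted p for RPS6KA2. The limit set by the filter holds for these calls too.

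The calls by label turned on single libraries. When Kasumi-1 siMM-mod 3 was left out, edgeR called 4250 genes (32.2%), RPS6KA2 and DUSP4 among them, with DUSP4 at −3.42 (adjusted p = 0.00357). When SKNO-1 siRE-mod 1 was left out it called 2535 (19.3%), again with both genes and with DUSP4 at −3.82 (adjusted p = 0.00898). Both genes pass the filter only through siMM-mod in these fits too, so the calls are description and support nothing. The fold change of DUSP4 was smaller in other fits, at −1.73 (adjusted p = 0.537) without Kasumi-1 siMM-mod 1 and −2.12 (adjusted p = 0.868) without SKNO-1 siRE-mod 2. RPS6KA2 fell below the filter without Kasumi-1 siMM-mod 1 or 2, so 4 of 6 such fits gave a value for it in that line. In the fits without Kasumi-1 siMM-mod 3 or SKNO-1 siRE-mod 1 every remaining siMM-mod library expresses CD34 and no remaining siRE-mod library does, so the siRNA label and CD34 cannot be told apart in them. RPS6KA1 and DUSP6 kept their sign with any 1 library left out. The log2 fold change of RPS6KA1 then lay between 0.65 and 1.55 in Kasumi-1 and between 0.81 and 2.37 in SKNO-1, and that of DUSP6 between −1.66 and −0.56 and between −1.70 and −1.08.

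**Figure D4:**
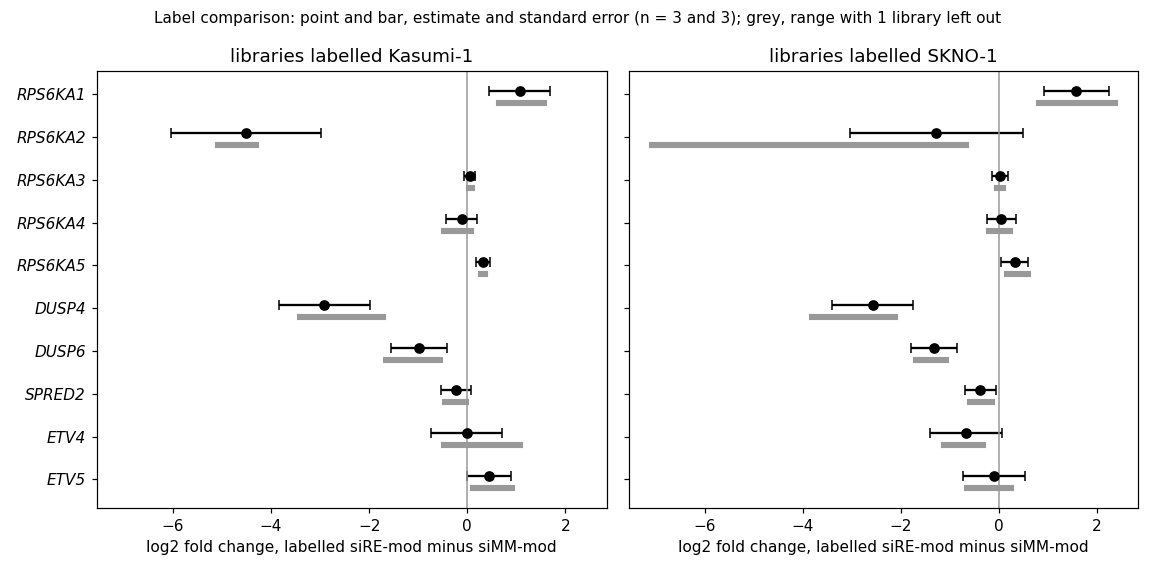
Log2 fold change of each of the 10 genes between libraries labelled siRE-mod and siMM-mod (horizontal), with point and bar for estimate and standard error from 3 libraries against 3, and grey bars for the range when 1 library is left out (for RPS6KA2 in Kasumi-1 only the 4 of 6 fits in which it passed the filter). Kasumi-1 is at the left and SKNO-1 at the right; the grey bar of RPS6KA2 in SKNO-1 reaches from −7.08 to −0.68, and no estimate passed an adjusted p of 0.05.

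The rest of the pathway was given by lists chosen with earlier results of these data known, and 0 genes of any list were called by label in either line by edgeR. In the ERK cascade core, 19 of 19 genes were tested, 3 had an unadjusted p under 0.05 in each line (against 17.9% of all Kasumi-1 genes tested and 10.7% of those of SKNO-1), with a median log2 fold change of 0.043 for Kasumi-1 and 0.12 for SKNO-1. SOS1, which loads RAS with GTP, was the core gene with the largest change at 1.10 (SE 0.39, adjusted p = 0.255) and 1.33 (SE 0.42, adjusted p = 0.466). It followed CD34 rather than the label, at 92.8 to 109.6 in CD34-expressing and 244 to 385 in CD34-silent libraries. Of 9 regulators of RAS, 1 had an unadjusted p under 0.05 in each line, against the same shares of all genes: NF1, which turns RAS off, at −0.94 (SE 0.34, adjusted p = 0.255) in Kasumi-1, and RASGRP4, which turns it on, at 1.82 (SE 0.54, adjusted p = 0.466) in SKNO-1. With lower RUNX1T1 on the CD34-expressing side, 3 of 19 core genes were higher and 5 lower without overlap. The 9 regulators had 5 and 2 there, against 18.1% and 20.1% of all genes. On the CD34-silent side the counts were 4 and 3 for the core and 3 and 2 for the regulators, against 21.7% and 21.6%.

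Of 20 other feedback genes and early ERK targets, 15 were tested in each line, with 3 positive and 12 negative log2 fold changes in Kasumi-1 (median −0.23) and 6 and 9 in SKNO-1 (median −0.085). The 5 feedback genes described above had 1 positive and 4 negative values in Kasumi-1. In SKNO-1 they had 0 and 5, and the lists were not compared by a test. With scaling by library totals alone SPRED2 and ETV4 in Kasumi-1 and ETV5 in SKNO-1 turned positive. DUSP10, a phosphatase that prefers JNK and p38, was at 2.10 (SE 0.64, adjusted p = 0.252) in Kasumi-1, and EGR1, an immediate early transcription factor, was at 2.92 (SE 1.03, adjusted p = 0.466) in SKNO-1. EGR1 was 4.62 to 9.03 in CD34-expressing libraries, 124 to 291 in CD34-silent libraries with higher RUNX1T1 and 25.6 to 37.3 in those with lower RUNX1T1. On the CD34-silent side it was thus lower together with DUSP6. On the CD34-expressing side, 8 of 16 genes of this list were lower and 2 higher with lower RUNX1T1, against 20.1% and 18.1% of all genes. On the CD34-silent side 7 were lower and 3 higher, against 21.6% and 21.7%. Between the sides, in libraries with higher RUNX1T1, 6 were lower and 6 higher in the CD34-silent ones, against 28.8% and 31.8%. This list was thus divided where all 5 feedback genes described above were lower. SPRED1, the closest relative of SPRED2, was 5.01 to 10.6 in CD34-expressing libraries and at most 0.104 in CD34-silent ones, unlike SPRED2. SPRED1 was named after its values were seen.

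Substrates and partners of the kinases had medians near 0 by label. The 14 RSK and MSK substrates had medians of −0.047 and −0.037, with EIF4B, a translation factor that RSK phosphorylates, at −1.05 (SE 0.31, adjusted p = 0.252) in Kasumi-1 and FLNA, a cytoskeletal substrate, at 0.60 (SE 0.36, adjusted p = 0.546) in SKNO-1. EIF4B was 571 to 749 in the CD34-silent libraries with lower RUNX1T1 and 1159 to 1827 in the other 9 libraries. Of 6 tested kinases and partners, MKNK2, another kinase activated by ERK, was at −0.93 (SE 0.31, adjusted p = 0.253) in Kasumi-1, and PEA15, a binding partner of ERK and RSK, was at 0.73 (SE 0.47, adjusted p = 0.569) in SKNO-1. With lower RUNX1T1 on the CD34-expressing side, 1 of 14 substrates was higher and 3 lower without overlap. The 6 kinases and partners had 2 and 2 there, against 18.1% and 20.1% of all genes. On the CD34-silent side the counts were 4 and 4 for the substrates and 4 and 0 for the kinases and partners, against 21.7% and 21.6%.

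The genes most like RPS6KA1 and DUSP6 over the 12 libraries were listed by Pearson's r of log2 normalised CPM, among 8856 genes with a mean of at least 10. For RPS6KA1 they were CD82 (r = 0.994), a tetraspanin that ranged from 5.54 to 287, NFE2 (0.992), a transcription factor of the erythroid and megakaryocytic lineages, and SPN (0.991), the leukocyte sialoglycoprotein CD43. For DUSP6 they were LRRC8C (0.987), a subunit of volume-regulated anion channels, BIN1 (0.980), a membrane-shaping protein, and KDM1A (0.978), a histone demethylase. The libraries fall into sets that share many differences, so these values describe 12 points and carry no p.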

How the data were processed

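The authors deposited raw read counts per gene for each in vitro library, together with CPM and FPKM, which are the deposited counts rescaled by total and by exonic length. Reads had been trimmed with Trim Galore 0.6.5 and aligned to GRCh38 with STAR 2.7.10a. The counting tool is Subread 1.6.5 in the methods and Rsubread 1.32.4 under R 3.5.1 in the table headers, and its strand and multi-overlap settings are not given in the sources used here. The 4 in vivo libraries were not analysed, because the 10 genes, ACTB and GAPDH are all listed at 0 there and 0.01997% to 0.03345% of reads lie on genes. Coordinates are those of the deposited tables (GRCh38, 1-based).

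Groups were taken from the sample labels. The members and gene lists were chosen with earlier results of these data known. Counts were fitted with edgeR 4.0.16 in R 4.3.3 (TMM, robust glmQLFit, glmQLFTest), per line over genes with at least 600 reads in total, with Benjamini-Hochberg adjustment over all genes and a threshold of 0.05. The difference between lines was an interaction over all 12 libraries, with 15863 genes. Each SE was derived from the test, as the absolute log2 fold change divided by the square root of its F statistic. TMM factors ranged from 0.854 to 1.19. Fits were tested on simulated counts with 200 changed genes and a dispersion of 0.02. The common dispersions of the data were 0.197 (Kasumi-1), 0.246 (SKNO-1) and 0.241 (difference between the lines). The simulation therefore checks the code and cannot show which changes the fits would detect in these data. With 3 libraries against 3, an exact two-sided permutation test cannot give a p under 0.1, so none was used for single genes. Libraries were also read by the largest log2 gap in CD34, then in RUNX1T1 on each side.

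Genes named were the 10 members, CD34, RUNX1T1, RUNX1 and IL5RA, the 3 genes most like RPS6KA1 and DUSP6, and in each pathway list any called gene or otherwise the one with the largest log2 fold change per line among those with a mean of at least 10 CPM. SPRED1 and the single blast and B cell markers were added after their values were seen. Alternatives were DESeq2 1.42.0, its size factors, library totals only, no filter, filterByExpr, a replicate block, 1 joint fit of the 12 libraries, each library left out, and deposited CPM for overlaps. The last was added for the reading by CD34 and RUNX1T1 after the data had been seen. Correlations of same-numbered deviations ran from −0.316 to 0.027. Libraries within each labelled group differ in their set by CD34 and RUNX1T1, so these values cannot show whether replicate numbers pair libraries. Tables and figures used Python 3.11.15, numpy 2.4.6, pandas 2.3.3 and matplotlib 3.10.9.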

Additional observations from a re-analysis of the deposited data

How the results depend on the processing

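Of 162 values recomputed with all libraries, 148 stayed the same, and of 142 with 1 library left out, 124 did. For a fold change this means the same direction and side of the threshold, and for a count of genes an equal or similar count. DESeq2 called 1158 genes in Kasumi-1 (221 higher, 937 lower), 372 in SKNO-1 (354 higher, 18 lower) and 127 for the difference between the lines (127 higher, 0 lower), where edgeR called 0 in each (2435, 1455 and 106 at an unadjusted p under 0.05). The cause was not tested. With 1 library left out, edgeR called 0 to 4250 genes in Kasumi-1, 0 to 2535 in SKNO-1 and 0 to 0 for the difference. The labelled groups of 2 members (RPS6KA3, RPS6KA5) were apart in Kasumi-1 with the deposited CPM, against 1 with TMM. Scaling by library totals alone, which moves the median of all genes to 0.33 in Kasumi-1 and 0.14 in SKNO-1, reversed RPS6KA4 (0.17), SPRED2 (0.094) and ETV4 (0.26) in Kasumi-1 and ETV5 (0.078) in SKNO-1. RPS6KA3 in SKNO-1 was −0.00083 with DESeq2's size factors and −0.00078 with DESeq2.

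The replicate block called 0 genes in each comparison (1763, 1133 and 21 at an unadjusted p under 0.05) and reversed ETV4 in Kasumi-1 (0.45). It changed no other direction. It moved RPS6KA2 in SKNO-1 from −1.28 to −5.18 (adjusted p = 0.624).

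Leaving out 1 library changed the sign of RPS6KA4 (−0.48 to 0.079 in Kasumi-1, −0.20 to 0.22 in SKNO-1), ETV4 in Kasumi-1 (−0.47 to 1.08), ETV5 in SKNO-1 (−0.66 to 0.24) and RPS6KA3 in SKNO-1 (−0.045 to 0.075). RPS6KA2 in Kasumi-1 had no value without siMM-mod 1 or 2, where it had too few reads for the filter. Depth limits RPS6KA2, with 3 to 20 reads in each CD34-silent library.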
